A study of Mus musculus with 147 samples.

Results

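Ribosome biogenesis and Myc are described here through 33 mouse genes: Myc itself and 32 genes whose proteins build ribosomes in the nucleolus. The genes were taken by name from a written list, and all 33 were found among the 50686 gene identifiers of both count tables. By role they comprise Myc, 5 nucleolar scaffold and chaperone genes, 3 genes of the C/D snoRNP, 3 genes of the H/ACA snoRNP, 3 subunits of RNA polymerase I, 7 genes of small subunit processing and 11 genes of large subunit assembly. They lie on 16 chromosomes. Wdr74 did not pass the filter on low counts in any comparison, which left 32 genes tested in each.

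A ribosome starts in the nucleolus, where RNA polymerase I transcribes a long precursor of the ribosomal RNAs. Small nucleolar ribonucleoproteins (snoRNPs) modify that precursor: the C/D class methylates ribose and the H/ACA class turns uridine into pseudouridine. Processing and assembly factors then cut and fold it into the small and the large subunit. MYC, a transcription factor that binds DNA at E-box letters such as CACGTG, is known to raise the transcription of many of these genes when cells grow, and in macrophages it is known as an early gene of the response to growth factors.

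RNA was counted in 147 libraries of macrophages and monocytes sorted by flow cytometry from mice. In the refeeding experiment (110 libraries), mice had fasted for 12 h and were then refed for 2 h, or had fasted for 12 h only, in 4 cohorts. Refed and fasted libraries numbered 9 and 8 for adipose tissue macrophages, blood monocytes, microglia and colonic macrophages, 7 and 6 for islet macrophages and Kupffer cells (the macrophages of the liver), and 8 and 8 for peritoneal macrophages. In the diet experiment (37 libraries, 8 cohorts), mice received STZ (streptozotocin, which kills insulin-producing beta cells) at week 4 of 8 weeks of high-fat feeding, or the 8 weeks of high-fat feeding alone, or a normal diet. The labels say that STZ led to loss of islets and to hyperglycemia. Libraries on high-fat diet with STZ, on high-fat diet and on normal diet numbered 3, 4 and 4 for islet macrophages, 5, 4 and 5 for peritoneal macrophages and 4, 4 and 4 for microglia. A library started from 400 cells, except for 100000 cells in the peritoneal and 5000 cells in the microglia libraries of the diet experiment. The sources used here name no strain, sex or age. The labels also do not say that the libraries of a group came from separate mice, so p-values measure the spread between libraries, which may be partly technical. Same-numbered libraries of different populations may share mice, which was not tested. Tests between populations and of interactions took all libraries as separate and had no term for mouse.

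Depth lay between 7.92 M and 27.3 M counts over the refeeding libraries, and between 11.35 M and 34.47 M counts over the diet libraries (M, 1000000). Levels are given in CPM, counts scaled to 1000000 per library. Every marker of a population's own list had a median of at least 1 CPM in that population. Summed levels of those lists stood apart from all other populations for peritoneal macrophages (21700 to 29400 CPM, against at most 1200 CPM elsewhere), microglia, Kupffer cells and monocytes of the refeeding experiment, but overlapped other populations for adipose, colonic and islet macrophages. Some libraries stood apart by RNA of other cells: pancreatic acinar RNA reached 192000 CPM in fasted colonic libraries 3 and 5, and B and plasma cell RNA was high in refed colonic libraries 1 and 2 and in refed microglia 6. Among peritoneal libraries of the refeeding experiment, fasted 5 and refed 6 held the most erythroid RNA, at 213.7 and 175.8 CPM. Peritoneal fasted 6 followed at 88.02 CPM and refed 8 at 71.99 CPM. Adipose fasted 5 and refed 2, 6 and 7 held mesothelial or fibroblast RNA above 200 CPM. In the diet experiment the peritoneal library normal 3 had the lowest sum of pan-macrophage markers, 2434 CPM, against 5298 to 7517 CPM in the other 13 peritoneal libraries. Exons of 18 of the 33 genes overlap another gene, 8 genes host small nucleolar RNAs, and Npm1, Tsr1 and Pes1 share 24.3%, 29.1% and 23.3% of their 50-base stretches with other genes. Reads there may have been counted for either gene.

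Around the transcript start of several of these genes stand the letters that MYC is known to bind, shown here because the genes were listed together with Myc. RefSeq (GRCm38.p6) gave windows from 250 bases before to 50 bases after a transcript start for 27 of the 33 genes, and Myc, Npm1, Fbl, Rrp12, Bop1 and Rrs1 were not matched. CACGTG, which reads the same on both strands, was present for 6 of 27 genes (22.2%), against 8.09% of 27025 genes and 12.2% of the 8583 other genes tested in peritoneal macrophages. CACGCG on either strand (CGCGTG when read on the gene's strand) was present for 9 of 27 genes (33.3%), against 10.5% of all genes and 20.1% of the other tested genes. Either motif was present for 13 of 27 genes (48.1%), against 17.2% and 29.6%. In Mybbp1a copies of CACGCG on both strands overlapped, in Polr1c they adjoined, and Mybbp1a and Pes1 held both motifs. A match is a description of these letters and no evidence of binding. Median GC content of the windows was 58% for these genes, 60.7% for the other tested genes and 52.7% for all windows. The short windows below run 5′ to 3′ on the gene's strand with the motif in capitals. The first 6 hold CACGTG and the last 3 hold CACGCG (as CACGCG or CGCGTG) in genes among those with the smallest p values after refeeding in peritoneal macrophages. Of the motifs in these short windows, those of Nop2 and Nolc1 begin upstream of the transcript start, at -60 and -25. Those of the other genes begin downstream of it, from base 3 (Pes1) to base 41 (Mybbp1a).
Mybbp1a (chr11:72441355-72441376, plus strand): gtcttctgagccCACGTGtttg
Nop2 (chr6:125131811-125131840, plus strand): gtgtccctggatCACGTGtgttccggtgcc
Pes1 (chr11:3963965-3963994, plus strand): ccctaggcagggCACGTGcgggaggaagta
Tsr1 (chr11:74898092-74898121, plus strand): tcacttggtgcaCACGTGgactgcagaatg
Utp20 (chr10:88826765-88826789, minus strand): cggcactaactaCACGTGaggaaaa
Wdr43 (chr17:71616220-71616249, plus strand): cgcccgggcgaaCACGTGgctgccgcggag
Nop16 (chr13:54590029-54590058, minus strand): ggagactattaaCACGCGgctctgagagcg
Nolc1 (chr19:46075810-46075839, plus strand): gcaggatgatgaCGCGTGtgggaccggaag
Ppan (chr9:20888172-20888201, plus strand): agagttacgagcCGCGTGgcaccggaagtt

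The 250 bases before the transcript start are given for Nolc1, whose motif lies closest to the start on the upstream side, and for Nop2, whose 5 calls between populations, given below, all had microglia on the higher side. Their GC contents were 56.4% and 67.6%, and the capitals again mark the motif (RefSeq, GRCm38.p6, plus strand, chr19:46075597-46075846 and chr6:125131633-125131882).
Nolc1: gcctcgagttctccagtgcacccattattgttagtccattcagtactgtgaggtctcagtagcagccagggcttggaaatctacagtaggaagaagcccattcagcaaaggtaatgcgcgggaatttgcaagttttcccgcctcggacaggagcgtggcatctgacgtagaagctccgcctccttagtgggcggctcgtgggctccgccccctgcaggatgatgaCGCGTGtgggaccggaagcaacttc
Nop2: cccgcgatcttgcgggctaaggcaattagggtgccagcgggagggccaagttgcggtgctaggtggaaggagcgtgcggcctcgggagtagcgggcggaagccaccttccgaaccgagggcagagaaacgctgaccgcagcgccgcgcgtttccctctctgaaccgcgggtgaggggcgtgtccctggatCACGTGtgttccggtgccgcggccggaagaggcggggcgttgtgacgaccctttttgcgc

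Levels by population were compared first, in fasted mice. Genes were set beside each other per kilobase of exon, with all annotated exons of a gene joined. This length was 2665 bases for Npm1, 2717 for Myc, 10188 for Ncl and 11955 for Wdr12, so the order depends on the annotation. Npm1 had the highest mean over the 7 populations (85.8 RPKM, CPM per kilobase). Myc (36.5 RPKM), Nhp2 (31.2 RPKM), Pes1 (24.4 RPKM) and Ncl (21.8 RPKM) followed. Wdr74, a large subunit factor, was lowest at 0.0942 RPKM, at or near no counts in every population, followed by Wdr12 (1.78 RPKM). Summed over the 33 genes, levels ran from 1239 CPM in monocytes to 1972 CPM in islet macrophages. Monocytes had the lowest mean of the 7 populations for 10 of the 33 genes, colonic macrophages for 8, and peritoneal macrophages for 1. Islet and peritoneal macrophages had the highest mean for 7 genes each. The spread between libraries of a population was wide: the median coefficient of variation over the genes ran from 33.5% in peritoneal macrophages to 60.4% in microglia.

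Of 672 tests (32 genes by 21 pairs of populations), edgeR's quasi-likelihood test called 46 at an adjusted p below 0.05 and a log2 difference of at least 1, which is 6.85%. Over all genes tested the share was 15.1%. The 46 calls belonged to 12 of the 32 genes, and 20 genes had none. Monocytes were part of 24 of the 46 calls (52.2%) and were the lower side in 23 of them. Over all genes they were part of 30.5% of the calls and the lower side in 62.4% of those. The difference between these shares was not tested.

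Myc (ENSMUSG00000022346.15, chr15:61985391-61990374, plus strand) averaged 129 ± 39.3 CPM in Kupffer cells (SD, n = 6), 125 ± 31.3 CPM in peritoneal macrophages (n = 8) and 122 ± 64.7 CPM in colonic macrophages (n = 8). Its mean was 119.4 ± 52.5 CPM in islet macrophages (n = 6) and 117.7 ± 43.4 CPM in microglia (n = 8). Adipose tissue macrophages followed with 59.6 ± 19.2 CPM (n = 8) and monocytes came last with 20.9 ± 13.7 CPM (n = 8). Neighbours among the first 5 populations did not differ beyond the spread between libraries. The last steps of the order passed edgeR's adjusted p. Adipose tissue macrophages stood at a log2 difference of -0.96 ± 0.31 to microglia (SE, adjusted p = 0.0223), just short of the size of 1 that a call required, and of 1.64 ± 0.31 to monocytes (adjusted p = 0.000102). Their difference to islet macrophages did not pass (-0.89 ± 0.33, adjusted p = 0.0529). Myc had 8 calls. Each of the 6 comparisons with monocytes was called, with Kupffer cells at the far end (log2 difference of monocytes to Kupffer cells -2.73 ± 0.35). Adipose tissue macrophages were also called lower than Kupffer cells and lower than peritoneal macrophages. Immediate early genes, which are known to respond within minutes to stimulation or handling of cells, summed to 2925 to 5627 CPM in fasted monocytes, 1469 to 3712 CPM in peritoneal macrophages, 9409 to 19020 CPM in Kupffer cells, 4049 to 48860 CPM in microglia and 32060 to 53170 CPM in adipose tissue macrophages. The sums of colonic and islet macrophages are not given here, and the part of these genes in the levels of Myc was not tested.

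Among the scaffold genes, Gnl3 (nucleostemin, a nucleolar GTPase, ENSMUSG00000042354.6, chr14:31012433-31019152, minus strand) had the widest range, with 113.4 ± 39.2 CPM in adipose tissue macrophages and 8.40 ± 10.7 CPM in monocytes (SD, n = 8 each). Monocytes were lower than each of the other populations, with edgeR log2 differences that ran from 3.89 (adipose tissue macrophages over monocytes) to -2.35 (monocytes to Kupffer cells), and 1 of the 8 monocyte libraries had no counts. Ncl (nucleolin, an abundant RNA-binding protein of the nucleolus) averaged 321 ± 76.7 CPM in adipose, 311 ± 82.8 CPM in islet and 296 ± 49.3 CPM in colonic macrophages, and 119.1 ± 29.97 CPM in monocytes and 134 ± 33.5 CPM in microglia. Its 6 calls are the differences between those 3 high and those low populations. Npm1 (nucleophosmin, a histone and ribosome chaperone) followed another order, with 348 ± 32.2 CPM in peritoneal macrophages (n = 8) and 309 ± 70.4 CPM in islet macrophages (n = 6) at the top and 111.4 ± 36.3 CPM in microglia (n = 8) at the bottom. For Npm1, monocytes were on the high side, at 251 ± 50.6 CPM, above microglia by a log2 difference of 1.16 ± 0.18 (edgeR, adjusted p = 3.17e-06). Nolc1, a chaperone of snoRNPs, was lower in monocytes than in 4 populations (16.2 ± 10.5 CPM, against 50.9 ± 28.6 CPM in adipose tissue macrophages). Mybbp1a, a nucleolar protein that binds Myb, had the narrowest range of the group, 2.25 times between islet and colonic macrophages.

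Within the snoRNP genes few differences were called. Nop56, a scaffold of the C/D class, was highest in microglia (112.5 ± 34.4 CPM, n = 8) and lowest in peritoneal macrophages (50.7 ± 10.6 CPM, n = 8), an edgeR log2 difference of 1.12 ± 0.26 (adjusted p = 0.00133). Its partner Nop58 had the widest range of the class (3.45 times) with 1 call, islet macrophages over monocytes. Fbl (fibrillarin, the ribose methyltransferase) had the narrowest (2.08 times) and no call. In the H/ACA class Gar1 spanned 4.44 times but at levels of 1.93 to 8.59 CPM and with no call, and Dkc1 (dyskerin, the pseudouridine synthase) spanned 1.62 times with no call. Nhp2, a core protein of that class, was called in 2 pairs, lower in Kupffer cells and in microglia than in peritoneal macrophages (20.5 ± 7.41 CPM, 25.95 ± 15.9 CPM and 53.2 ± 9.96 CPM).

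Polr1a (ENSMUSG00000049553.11, chr6:71909053-71984935, plus strand), the largest subunit of RNA polymerase I, averaged 88.1 ± 46.3 CPM in microglia, 74.8 ± 22.2 CPM in Kupffer cells, 63.6 ± 26.6 CPM in peritoneal macrophages and 10.2 ± 10.6 CPM in colonic macrophages, where 2 of 8 libraries had no counts. All 3 differences were called: the edgeR log2 difference of microglia to colonic macrophages was 3.22 ± 0.78, and those of colonic macrophages to Kupffer cells and to peritoneal macrophages were -3.01 ± 0.80 and -2.74 ± 0.76. Polr1c, a subunit shared with RNA polymerase III, ranged over 2.38 times and Polr1b, the second largest subunit, over 4.58 times, both with no call.

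Nop2 (ENSMUSG00000038279.10, chr6:125131909-125144753, plus strand), an rRNA cytosine methyltransferase of the large subunit whose promoter is printed above, had 5 calls, all with microglia on the higher side. It averaged 113.2 ± 45.9 CPM in microglia (n = 8), 57.7 ± 35.8 CPM in adipose tissue macrophages and 33.5 to 44.9 CPM in the other 5 populations. By edgeR, microglia were above those 5 by log2 differences of 1.39 to 1.82, while the difference to adipose tissue macrophages did not pass (adjusted p = 0.129). The other large subunit genes had no call. Wdr12 had the widest range (5.92 times, 36.3 ± 12.1 CPM in Kupffer cells and 6.14 ± 6.88 CPM in islet macrophages) and Bop1, its partner in the PeBoW complex, the narrowest (1.47 times). In small subunit processing, Nop14 was called in 1 pair (adipose over monocytes, log2 2.38 ± 0.71, edgeR adjusted p = 0.014), and Noc4l had the narrowest range, 1.86 times. Leaving out the colonic libraries with acinar RNA gave 47 calls of 672 (6.99%, against 14.4% over all genes tested). Refed in place of fasted libraries gave 51 (7.59%, against 16.2%).

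**Figure D1:**
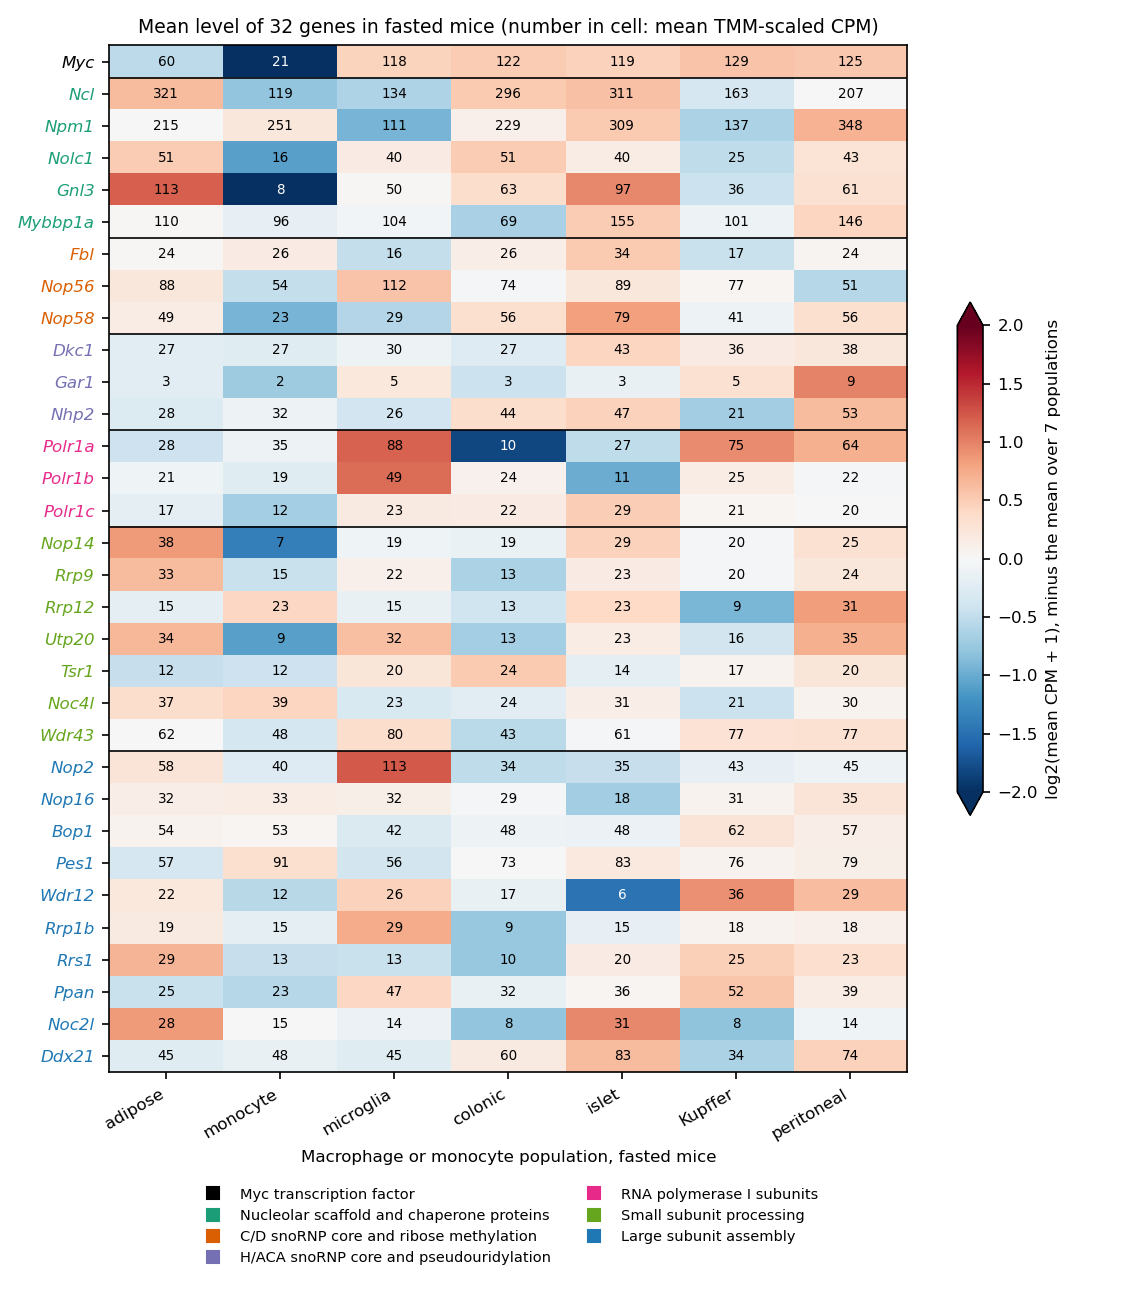
Mean levels of the 32 tested genes in the 7 populations of fasted mice, with genes grouped by role. The number in a cell is the mean CPM, and the colour is log2(mean CPM + 1) minus the gene's mean over the populations, with colours ending at differences of 2 either way. Monocytes show the lowest values for Myc and Gnl3, microglia the highest for Nop2, and colonic macrophages the lowest for Polr1a.

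Refeeding was compared in each population with edgeR, with cohort as a term. In peritoneal macrophages Nop16 rose after refeeding, the single gene of the list to pass (1 of 32). The background there was 49 of 11331 genes called (0.432%), 37 of them higher in refed libraries (0.327%). Of the 32 genes 26 were higher in refed than in fasted libraries, with a median log2 change of 0.275, while 49.6% of all tested genes were higher with a median of -0.004. At an unadjusted p below 0.05, 9 of the genes were higher and 1 lower, beside 11% of all genes. In bulk RNA of sorted cells, more RNA per cell and a larger share of cells that make it cannot be told apart.

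Nop16 (ENSMUSG00000025869.11, chr13:54584185-54590090, minus strand), a nucleolar factor of large subunit precursors known from yeast, had 42.97, 63.6 and 87.7 CPM as the lowest, median and highest of 8 refed libraries, against 21.4, 33.7 and 53.9 CPM in 8 fasted libraries. All 8 refed libraries were above the fasted median, and the groups overlapped by range. Its log2 change was 1.02 ± 0.19 (SE, edgeR, adjusted p = 0.0273). Within each of the 4 cohorts every refed library was above every fasted one, which held for 84 of 11331 genes (0.741%), and the mean differences on the log2(CPM + 1) scale were 0.73, 0.99, 0.83 and 1.44. The call was narrow: leaving out any 1 of 11 of the 16 libraries moved Nop16 to adjusted p values of 0.0511 to 0.118, at log2 changes of 0.95 to 1.04. These were fasted 2, 3, 4, 5, 7 and 8 and refed 2, 4, 5, 8 and 9. With the replicate number as a block in place of cohort, Nop16 was at 1.05 and did not pass (edgeR adjusted p = 0.228), and 0 of 11331 genes were called (1017 had an unadjusted p below 0.05).

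Myc had the second smallest p of the list. Its refed libraries had 116.2, 173 and 254 CPM as lowest, median and highest, against 84.9, 122 and 172 CPM in fasted libraries. The ranges overlapped, 7 of 8 refed libraries were above the fasted median, and the log2 change of 0.50 ± 0.14 did not pass (edgeR, adjusted p = 0.137). DESeq2 on the same counts gave 0.49 with an adjusted p of 0.0447.

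Among the scaffold genes, Nolc1 (ENSMUSG00000015176.9) had 24.4, 63.95 and 127 CPM in refed libraries, against 22.5, 39.6 and 61.4 CPM in fasted libraries (log2 0.75 ± 0.23, edgeR adjusted p = 0.181). Npm1 (ENSMUSG00000057113.13) went the other way, with 225, 276 and 346 CPM in refed libraries, against 300, 351 and 384 CPM in fasted libraries. No refed library of Npm1 was above the fasted median, yet the log2 difference of -0.32 ± 0.10 did not pass (edgeR, adjusted p = 0.222). Gnl3 had a log2 difference of 0.47 ± 0.22 and Ncl one of 0.01 ± 0.13, so this group held genes on both sides (4 of 5 higher, median 0.189).

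All 3 genes of the C/D snoRNP were higher in refed libraries, with a median log2 difference of 0.575. Nop58 (ENSMUSG00000026020.9) had 39.1, 72.1 and 139 CPM in refed libraries, against 35.96, 49.4 and 92.2 CPM in fasted libraries (log2 0.60 ± 0.19, edgeR adjusted p = 0.190), and Nop56 had a log2 difference of 0.58 ± 0.22. Neither passed with all libraries. Without refed 6 alone Nop58 reached 0.73 with an edgeR adjusted p of 0.0376. Without both libraries with erythroid RNA above 150 CPM (fasted 5 and refed 6) 3 genes of the list passed, Nop16 and Nop58 among them. Refed 6 was also the refed library with the lowest values of the listed genes, and the part of erythroid RNA was not tested. In the H/ACA class the median was 0.054, and for RNA polymerase I it was 0.203, with Polr1a at -0.24 ± 0.25 and Polr1b at 0.88 ± 0.50.

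The subunit factors leaned higher as well, 4 of 7 for the small subunit (median log2 difference 0.297) and 9 of 10 for the large (median 0.380). Ppan (ENSMUSG00000004100.12), the mouse form of yeast Ssf1 in large subunit precursors, had 38.2, 66.5 and 83.0 CPM in refed libraries, against 19.98, 37.6 and 59.1 CPM in fasted libraries. All 8 refed libraries of Ppan were above the fasted median (log2 0.64 ± 0.22, edgeR adjusted p = 0.246). Nop2 had a log2 difference of 0.67 ± 0.26 and Tsr1, a late small subunit factor, one of 0.69 ± 0.29, and neither passed. No gene of the list separated refed from fasted libraries completely, as 0.212% of all genes did upward and 0.115% downward.

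**Figure D2:**
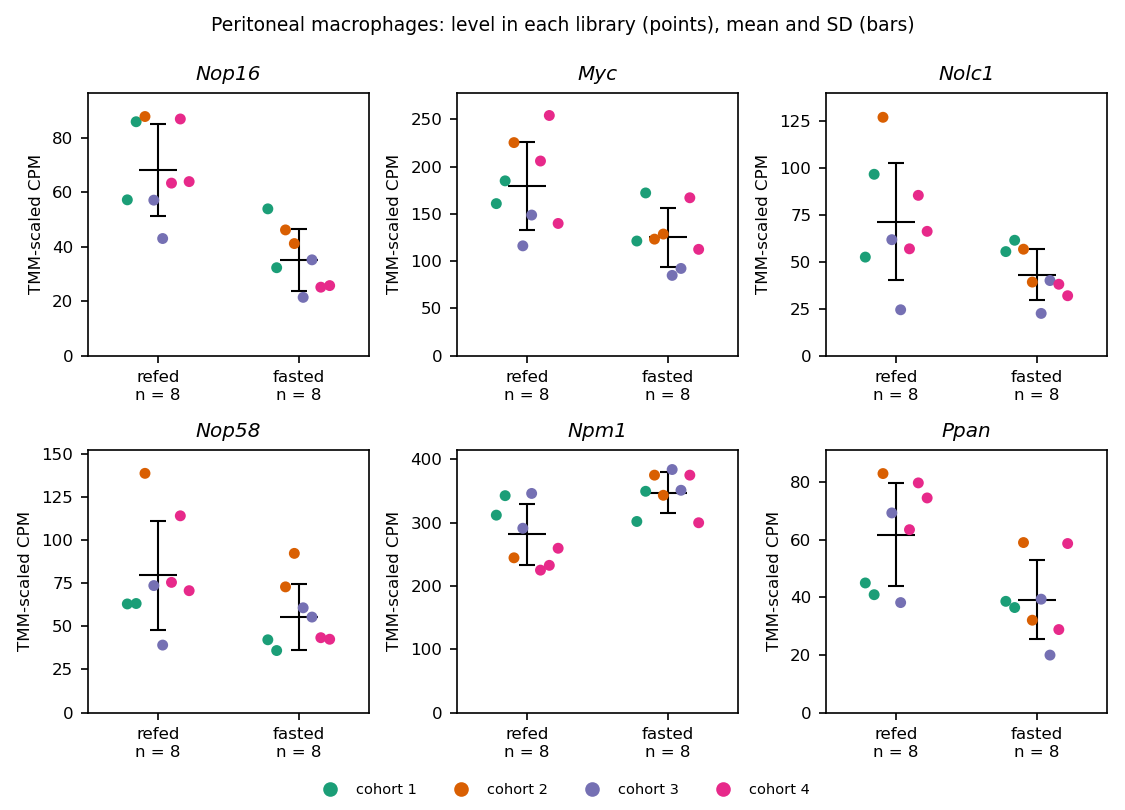
Levels (CPM) of Nop16, Myc, Nolc1, Nop58, Npm1 and Ppan in each refed (left) and fasted (right) peritoneal macrophage library, coloured by cohort, with the group mean and SD as bars. Nop16 ran from 42.97 to 87.7 CPM in refed and from 21.4 to 53.9 CPM in fasted libraries, and Npm1 is the panel in which refed libraries lie lower.

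Library by library, the median deviation of the 32 genes from their fasted mean ran from -0.42 (refed 6) to 0.96 (refed 4) on the log2 scale in refed libraries and from -0.36 to 0.36 in fasted libraries. Within cohorts 1 to 4, 22, 29, 19 and 22 of the 32 genes were higher in refed libraries. Heat shock chaperones, known to respond to stress of cells, summed to 2203 to 7941 CPM in refed libraries (median 4282) and to 2267 to 3340 CPM in fasted libraries (median 2546). Refed 6, with the lowest values of the ribosome biogenesis genes, had the lowest chaperone sum of the refed libraries, and refed 4, with the highest, had the highest. The part of these chaperone levels in the result was not tested.

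Other genes of the same pathways were read from written lists in the same peritoneal comparison. Of the other small subunit processome genes 39 of 47 were higher in refed libraries (median log2 difference 0.257), and of the other large subunit genes 40 of 50 (median 0.268). None of either list passed edgeR's adjusted p. The smallest p values there belonged to Wdr75 (0.80 ± 0.22, adjusted p = 0.121), a processome protein, and Nip7 (0.66 ± 0.19, adjusted p = 0.132), a large subunit factor. Genes of a list of MYC targets with roles outside nucleolar assembly were higher in 38 of 45 cases (median 0.250), led by Grwd1 (0.83 ± 0.26, adjusted p = 0.190), and other RNA polymerase I machinery in 8 of 13 (median 0.239), led by the initiation factor Rrn3 (0.50 ± 0.19, adjusted p = 0.303). Partners and antagonists of MYC were near no change (7 of 13, median 0.002), with the antagonist Mxd4 at -0.80 ± 0.29 (adjusted p = 0.262).

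Cytosolic ribosomal protein genes, which code for the proteins of the ribosome itself, lay on the opposite side. In peritoneal macrophages 0 of 43 were higher in refed libraries, with a median log2 difference of -0.174, and 19 were lower at an unadjusted p below 0.05. None passed edgeR's adjusted p, with Rps4x closest (-0.36 ± 0.09, adjusted p = 0.0991). Under DESeq2's size factors the picture was alike, with 25 of 32 ribosome biogenesis genes higher (median 0.263) and 0 of 43 ribosomal protein genes higher (median -0.185). Heat shock chaperones were higher in refed libraries in 16 of 17 cases (median 0.749), and immediate early genes in 15 of 19 (median 0.489). Of these stress and early response genes 3 passed edgeR's test. The chaperones Hsph1 (2.46 ± 0.40, adjusted p = 0.0158) and Hspa8 (1.02 ± 0.19, adjusted p = 0.0235) rose, and the early gene Egr1 fell (-0.96 ± 0.20, adjusted p = 0.0493). Cell cycle genes were higher in 17 of 28 cases with a median of 0.143, and none passed.

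In the other 6 populations edgeR called 0 of the 32 genes, where it called 0% of all genes, and DESeq2 and limma voom also called 0 of the 32. In adipose tissue macrophages 11 of 32 genes were higher in refed libraries (49.8% of all genes) with a median log2 difference of -0.154, in monocytes 18 (48.2% of all genes) with 0.069, and in microglia 15 (49.8%) with -0.024. In colonic macrophages 19 were higher (50% of all genes) with a median of 0.143, in islet macrophages 20 (52.9%) with 0.095 and in Kupffer cells 17 (46.8%) with 0.033. Unadjusted p values below 0.05 belonged to 2 genes in adipose tissue macrophages (5.16% of all genes), 1 in colonic macrophages (2.59%), 1 in islet macrophages (2.42%) and 1 in Kupffer cells (3.27%), and none in monocytes (2.65%) and microglia (2.59%). Without the libraries that held RNA of other cells the median was -0.008 in adipose and 0.278 in colonic macrophages.

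The genes of smallest p differed by population. In adipose tissue macrophages Noc4l, a small subunit factor, had 0.0826, 12.2 and 45.1 CPM as lowest, median and highest of 9 refed libraries, against 25.5, 32.1 and 71.9 CPM in 8 fasted libraries (log2 -1.52 ± 0.67), and Nop56 averaged 61.9 ± 13.9 CPM in refed and 88.1 ± 29.2 CPM in fasted libraries (log2 -0.48 ± 0.22). In Kupffer cells Polr1a averaged 43.2 ± 23.99 CPM in 7 refed and 74.8 ± 22.2 CPM in 6 fasted libraries (log2 -0.95 ± 0.40). In islet macrophages Npm1 averaged 240 ± 38.6 CPM in refed and 309 ± 70.4 CPM in fasted libraries (log2 -0.37 ± 0.16), the same sign as in peritoneal macrophages. In colonic macrophages Nop58 averaged 82.6 ± 53.5 CPM in refed and 55.7 ± 30.7 CPM in fasted libraries (log2 0.64 ± 0.29). The ranges overlapped in each case, and edgeR's adjusted p values lay between 0.926 and 1.

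Myc itself had log2 differences of 0.09 ± 0.31 in adipose tissue macrophages, -0.20 ± 0.49 in monocytes, 0.35 ± 0.28 in microglia, -0.01 ± 0.29 in colonic macrophages, 0.14 ± 0.26 in islet macrophages and -0.04 ± 0.28 in Kupffer cells. In microglia its refed libraries averaged 156 ± 64.9 CPM and its fasted libraries 117.7 ± 43.4 CPM. Among islet and Kupffer libraries, 4 with a refed title carry a description that mentions fasting alone, and they were kept by title, and without them the Kupffer value for Myc was 0.20.

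**Figure D3:**
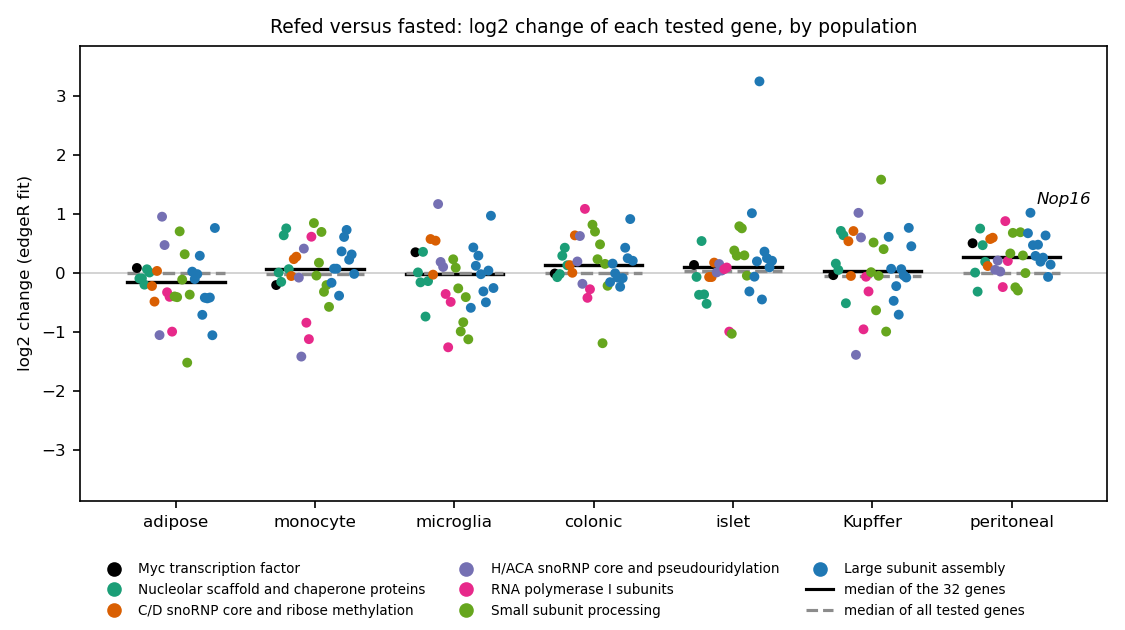
Log2 change (refed over fasted) of each of the 32 genes in the 7 populations (points coloured by role), with a black line at their median and a grey dashed line at the median of all tested genes. Peritoneal macrophages have the median farthest above 0 (0.275), and Nop16, the single gene with an adjusted p below 0.05, is labelled.

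Whether refeeding acted differently among the populations was tested by the interaction of population and treatment over all 110 libraries. edgeR called 0 of the 32 genes, where it called 3 of 8279 genes (0.0362%). No gene of the list had an unadjusted p below 0.05, beside 2.07% of all genes. Limma voom also called 0, with 5 genes below an unadjusted 0.05, beside 9.31% of all genes. Nop16 had the smallest p of the list (limma adjusted p = 0.327). So the Nop16 call in peritoneal macrophages was not shown to differ from the other populations. The test had little power for a change of that size. On simulated counts edgeR's interaction test recovered 12.1% of genes changed by a log2 of 1 in refed peritoneal libraries.

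In the diet experiment the 3 contrasts of a population share libraries, so their values are set side by side and not related to each other. edgeR called 0 of the 32 genes in each of the 9 contrasts. Calls over all genes were 0% in 8 contrasts and 1.29% (171 of 13225 genes) for high-fat diet with STZ against normal diet in peritoneal macrophages. DESeq2 called 0 of the 32 genes in all 9 and limma voom called 1, Rrp12 in the last contrast named.

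In peritoneal macrophages 28 of 32 genes were higher on high-fat than on normal diet, with a median log2 difference of 0.160, while 48.1% of all genes were higher with a median of -0.011. Each of the 4 cohorts with both diets, 1 library a side, had most genes higher (25, 27, 25 and 22 of 32). Fitted without the cohort term, which lets the library normal 3 into this contrast in full, the median was 0.054. At an unadjusted p below 0.05 there were 2 genes, Polr1b and Gnl3, beside 3.54% of all genes. Gnl3 had 77.4, 67.6, 65.5 and 65.6 CPM in the 4 libraries on high-fat diet, against 53.8, 46.8, 66.1, 44.6 and 57.1 CPM on normal diet. The single normal library within the high-fat range was normal 3, the one with few macrophage markers, which had no high-fat library in its cohort. The log2 difference of Gnl3 was 0.40 ± 0.17 (edgeR, adjusted p = 0.989).

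Polr1b (ENSMUSG00000027395.15, chr2:129100995-129126594, plus strand) had 40.6, 36.4, 27.3 and 35.9 CPM on high-fat diet, against 34.6, 17.6, 10.9, 22.4 and 29.5 CPM on normal diet (log2 0.58 ± 0.24, edgeR adjusted p = 0.989). The groups overlapped. Tsr1 and Ddx21, an RNA helicase of the nucleolus, separated all high-fat from all normal libraries upward, as 0.960% of all genes did, with log2 differences of 0.61 ± 0.32 and 0.32 ± 0.19. Dkc1 followed at 0.23 ± 0.15, and Myc was at 0.14 ± 0.19, with 120.3, 98.2, 113.7 and 125 CPM on high-fat diet, against 89.2, 91.6, 137, 147 and 87.9 CPM on normal diet. The high-fat levels of Myc lay inside the range of the normal ones.

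With STZ added, 16 of 32 genes were higher than on normal diet (49.2% of all genes), with a median log2 difference of 0.015, and 8 of 32 were higher than on high-fat diet alone (50.1% of all genes), with a median of -0.157. In each contrast 2 genes had an unadjusted p below 0.05, beside 19.6% and 8.08% of all genes. Against normal diet, Rrp12, a factor of small subunit export, had 31, 22.6, 27.3, 20.9 and 22.98 CPM with STZ, against 17.5, 14.9, 1.075, 14.03 and 20.1 CPM. Those groups did not overlap, which held upward for 2.42% of all genes, and the log2 difference was 1.08 ± 0.44 (edgeR, adjusted p = 0.206). Normal 3 decided its size, since without it the difference was 0.54. Ddx21 (0.42 ± 0.18), Rrp1b (-0.32 ± 0.17), Ppan (-0.34 ± 0.18) and Tsr1 (0.56 ± 0.31) came next, with Myc at -0.08 ± 0.17. Without normal 3 Ddx21 was at 0.21 and Tsr1 at 0.14.

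Against high-fat diet alone, libraries with STZ were lower for Ppan (-0.44 ± 0.19), Rrp9 (-0.42 ± 0.19), Gnl3 (-0.34 ± 0.16), Dkc1 (-0.31 ± 0.15) and Wdr12 (-0.35 ± 0.19), and none passed (edgeR, adjusted p from 0.583). Gnl3, Ppan and Nop56 had every STZ library below every high-fat library, as 2.70% of all genes did. For Gnl3 the STZ values were 56.3, 58.9, 55.4, 60.9 and 48.3 CPM, within the range of the normal libraries. Myc was at -0.22 ± 0.19, with 1 STZ library at 62.2 CPM and the other 4 at 100.5 to 125 CPM. Cytosolic ribosomal protein genes were higher in 0 of 43 cases in each of the 3 contrasts, with medians of -0.275 (high-fat against normal diet), -0.540 (STZ against normal) and -0.287 (STZ against high-fat). In the same libraries cell cycle genes were higher in 28 of 28 cases with STZ than on normal diet (median 0.885) and than on high-fat diet (median 0.890), and none passed edgeR's adjusted p. Peritoneal macrophage markers summed to 23000, 21800, 13170, 16030 and 10240 CPM in the 5 STZ libraries, 20970 to 21870 CPM on high-fat diet and 18640 to 23160 CPM on normal diet. STZ libraries 3, 4 and 5 were thus below every other peritoneal library of the experiment, and the part of these levels in the results with STZ was not tested.

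**Figure D4:**
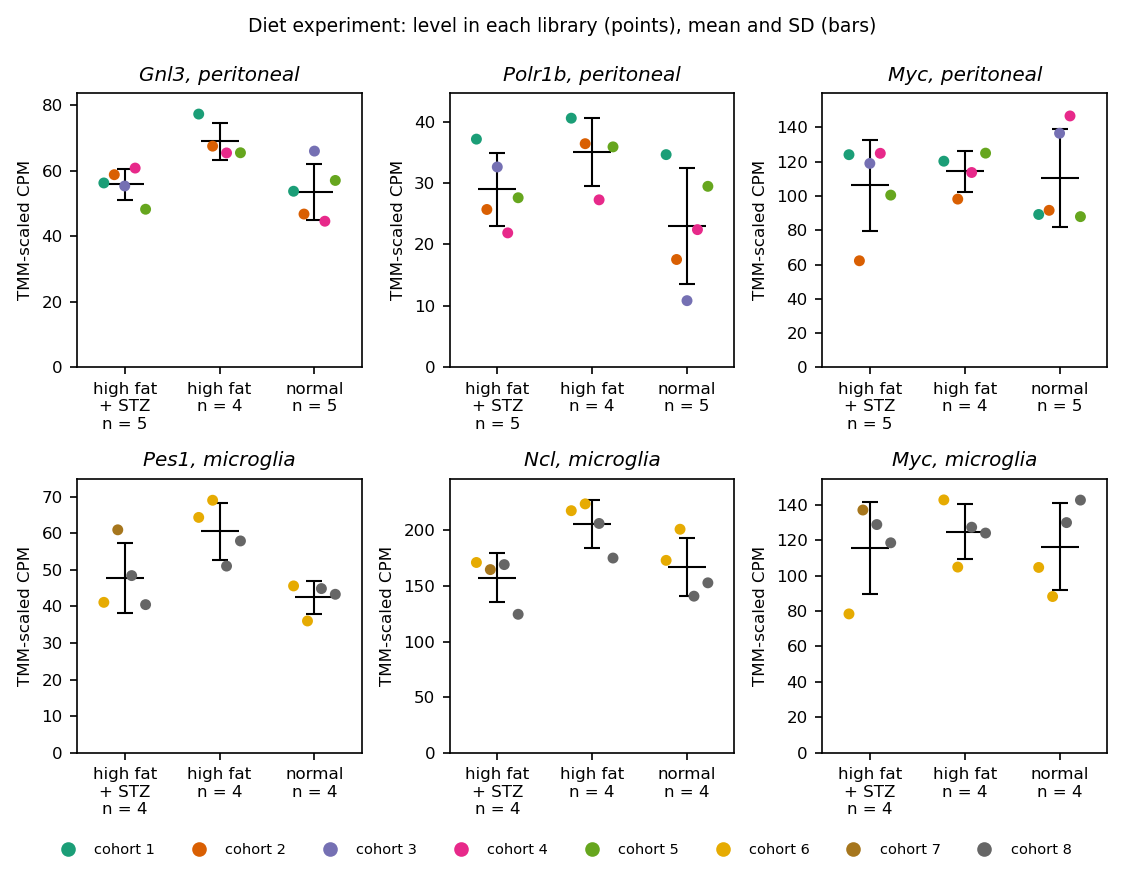
Levels (CPM) per library on high-fat diet with STZ, high-fat diet and normal diet (left to right) for Gnl3, Polr1b and Myc in peritoneal macrophages and for Pes1, Ncl and Myc in microglia, coloured by cohort, with the group mean and SD as bars. Peritoneal Gnl3 lay at 65.5 to 77.4 CPM on high-fat diet and microglial Pes1 at 51.03 to 69.0 CPM, above most libraries of the other groups, while Myc overlapped throughout.

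In microglia 26 of 32 genes were higher on high-fat than on normal diet (median log2 difference 0.273, against 0.040 for all genes, of which 53.8% were higher), and 20 and 21 of 32 within the 2 cohorts that hold both diets. With limma voom and quality weights the median was 0.109. Pes1 (ENSMUSG00000020430.12, chr11:3963975-3980004, plus strand), a PeBoW protein of the large subunit, had 64.3, 69.0, 51.03 and 57.9 CPM on high-fat diet, against 45.6, 36.03, 44.9 and 43.3 CPM on normal diet. Pes1 groups did not overlap, nor did those of Noc2l, as 1.38% of all genes did upward. The log2 difference of Pes1 was 0.49 ± 0.19 (edgeR, adjusted p = 1), and it was the single gene of the list at an unadjusted p below 0.05, beside 3.16% of all genes. Noc2l (0.94 ± 0.43), Ncl (0.29 ± 0.14), Polr1a (0.54 ± 0.27) and Nop58 (0.81 ± 0.48) followed, with Myc at 0.11 ± 0.17.

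With STZ against normal diet, 21 of 32 genes were higher in microglia (48.4% of all genes, median 0.176, all genes -0.018), and without normal 3_17 the median was 0.020. STZ library 2_9 was alone in its cohort. With cohort as a term, the log2 differences and p-values of both STZ contrasts in microglia therefore rest on the other STZ libraries. Polr1a was the 1 gene at an unadjusted p below 0.05 (2.15% of all genes; log2 0.70 ± 0.30), with 49.5, 44.2, 62.8 and 82.9 CPM, against 52.2, 40.6, 26.8 and 39.7 CPM on normal diet, and these overlapped. Wdr43, Nolc1, Bop1 and Wdr12 came next with log2 differences of 0.36, 0.48, 1.09 and 0.53, and none passed. Their sizes moved with single libraries: Wdr43 was at 0.125 and Wdr12 at 0.193 without STZ 3_15, Nolc1 at 0.097 without STZ 3_13, and Bop1 at 0.50 without normal 3_17. Myc was at -0.19 ± 0.18. With STZ against high-fat diet, 13 of 32 genes were higher (46% of all genes; median -0.140, all genes -0.048), and Ncl and Pes1 were the 2 at an unadjusted p below 0.05 (4.77% of all genes; log2 -0.38 ± 0.15 and -0.48 ± 0.21). Ncl (ENSMUSG00000026234.12, chr1:86344719-86359400, minus strand) had 171, 165, 169 and 125 CPM with STZ, against 218, 224, 206 and 175 CPM on high-fat diet. Every STZ library was lower for Ncl and for Noc2l, as 1.83% of all genes were, and edgeR's adjusted p was 1 for both Ncl and Pes1. Nolc1 (0.60 ± 0.35), Myc (-0.30 ± 0.19) and Nop56 (-0.30 ± 0.20) followed. Heat shock chaperones in these microglia summed to 12860 to 17540 CPM with STZ, 11870 to 17330 CPM on high-fat diet and 9003 to 11330 CPM on normal diet, and immediate early genes to 67890 to 74880 CPM with STZ, 72220 to 79750 CPM on high-fat diet and 64160 to 72470 CPM on normal diet. Their part in the levels of the ribosome biogenesis genes was not tested.

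In islet macrophages 15 of 32 genes were higher on high-fat than on normal diet (58% of all genes; median -0.054, all genes 0.133), and without high-fat 4 the median was 0.103. Nop58 was the 1 gene at an unadjusted p below 0.05 (2.42% of all genes), with 40.96, 70.8, 105.8 and 47.4 CPM on high-fat diet, against 90.5 to 142.5 CPM in the 4 libraries on normal diet (log2 -0.86 ± 0.30, edgeR adjusted p = 1). The groups overlapped through the high-fat library at 105.8 CPM. Nop56 (-0.92 ± 0.42), Utp20 (2.73 ± 1.42), Rrs1 (-1.10 ± 0.65) and Gnl3 (0.59 ± 0.38) came next. With STZ 11 of 32 genes were higher than on normal diet (43.8% of all genes; median -0.335, all genes -0.153) and 11 of 32 higher than on high-fat diet (37.2% of all genes; median -0.296, all genes -0.287). Without STZ 5 these medians were -0.125 and -0.002. No gene of the list had an unadjusted p below 0.05 in either STZ contrast, beside 5.66% and 4.99% of all genes.

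Myc in islet macrophages had 54.4, 47.3 and 30.1 CPM with STZ, 11.6, 126, 66.4 and 66 CPM on high-fat diet and 66.9, 53.9, 50.5 and 52.2 CPM on normal diet. The groups overlapped, the high-fat libraries spread widest, and the log2 differences were 0.06 ± 0.61 (high-fat against normal diet), -0.23 ± 0.65 (STZ against normal) and -0.30 ± 0.69 (STZ against high-fat). Without high-fat 5, the library at 126 CPM, the high-fat difference of Myc from normal diet was -0.63. B and plasma cell RNA reached 14200 CPM in the high-fat and 7586 CPM in the normal group, and its part in these values was not tested. Nop2 had 28.2, 1.22 and 0.0892 CPM with STZ (the last being 1 count), against 53.5, 30.98, 62.6 and 18.8 CPM on normal diet (log2 -3.44 ± 1.71, edgeR adjusted p = 0.868).

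**Figure D5:**
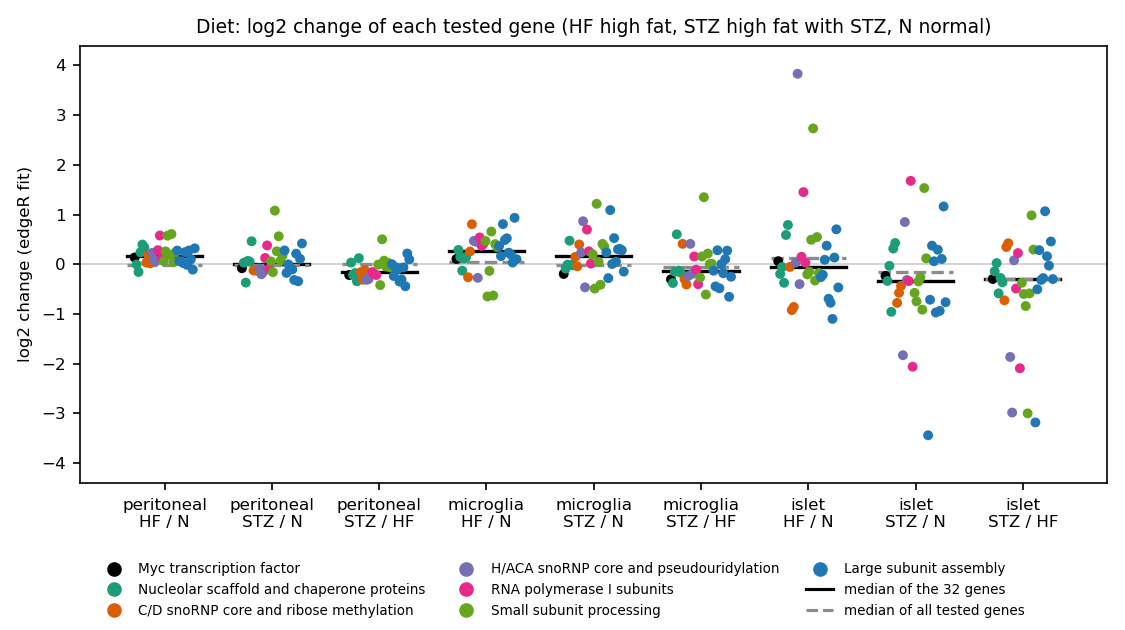
Log2 difference of each of the 32 genes in the 9 contrasts of the diet experiment (HF, high-fat diet; STZ, high-fat diet with STZ; N, normal diet; points coloured by role), with a black line at their median and a grey dashed line at the median of all tested genes. The medians lay above that of all genes for high-fat against normal diet in peritoneal macrophages (0.160) and microglia (0.273) and for STZ against normal diet in microglia (0.176) and peritoneal macrophages (0.015), below it in the other 5 contrasts, and no gene had an adjusted p below 0.05.

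Differences of the diet effect among the 3 populations were tested by interaction over all 37 libraries and 10681 genes. edgeR called 0 of the 32 genes for high-fat against normal diet (0.150% of all genes called), for STZ against normal diet (0.693%) and for STZ against high-fat diet (0.637%). At an unadjusted p below 0.05 there were 2 genes in the first (Nop58 and Nop56), beside 4.08% of all genes. In the second there was 1 (Nop2), beside 10.7%, and in the third none, beside 8.38%. The opposite signs of Nop58 in microglia and islet macrophages on high-fat diet did not pass as a difference (edgeR adjusted p = 0.673).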

How the data were processed

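Bulk RNA was sequenced from FACS-sorted cells after PicoPure extraction and the Smart-seq2 protocol, per the labels' protocols. The authors deposited 2 tables of raw read counts per Ensembl gene, made with Trimmomatic 0.36, STAR 2.5.1a and featureCounts on mm10, per the submitters' processing notes. The annotation release and the handling of strand and of reads with several matches were not given in the sources used. Symbols, coordinates (GENCODE M21, mm10) and sequences (RefSeq) came from reference tables, and 50376 of 50686 identifiers had a symbol. Identifiers without one held at most 0.0438% of counts.

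From the counts, levels were computed as CPM (counts scaled to 1000000) on TMM-scaled library sizes and tests with edgeR 4.0.16 (R 4.3.3): filterByExpr, quasi-likelihood F test with robust spread, cohort as a term and Benjamini-Hochberg adjustment over all tested genes at 0.05. Diet contrasts of a population were fitted together. Interactions used only genes that passed the filter in every population. Alternatives were DESeq2 1.42.0, limma 3.58.1 voom, other scaling and filters, no cohort term, a replicate block and leaving out each library. Libraries with RNA of other cells were left out in alternatives chosen after seeing the data.

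The genes and lists were chosen with earlier results of these data known. Genes named are Myc, those past the adjusted threshold, the 5 of smallest p in each comparison, the widest and narrowest of each role across populations, and per pathway list those past the threshold or the 1 of smallest p. Where other genes are named for ranges that did not overlap, or for values near 0, they were chosen after their values were seen. On simulated counts the peritoneal refeeding test (11331 genes) recovered 33.0% of genes changed by a log2 of 1 and 67.4% by a log2 of 2, with 5.05% false calls. The high-fat test recovered 37.8% and 78.4% in peritoneal macrophages (13225 genes), and 0% and 20.0% in islet macrophages (12406 genes). With 3000 genes, the test of adipose against monocyte libraries recovered 6.32% and 28%, and the refeeding interaction test 12.1% and 39.4%. None of 443 pairs of libraries in a group was identical. Replicate numbers of refed and fasted libraries were not taken to pair them, since in no population did every same-numbered pair correlate above 0.1.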

Additional observations from a re-analysis of the deposited data

Results flagged for a closer look

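A value far from the rest was looked for in 90 checks, each of 1 gene or of the median deviation in 1 group of libraries. In 4 checks such a value was found, and chance flags about 5% of checks. Checks of the same group share libraries, and groups of 3 libraries were not checked. In microglia on high-fat diet with STZ, Ncl stood at 124.6 CPM in library 3_15, against a group median of 167.1 CPM (n = 4), so part of the lower mean of Ncl in that group rests on this library. In fasted colonic macrophages, Nop2 stood at 0.0942 CPM in library 3, one of those with pancreatic acinar RNA, against a median of 33.9 CPM (n = 8). In peritoneal macrophages on normal diet, Ddx21 stood at 19.74 CPM in library 3, the one with the lowest sum of macrophage markers, against a median of 52.3 CPM (n = 5). In peritoneal macrophages on high-fat diet with STZ, the median deviation of the 32 genes from the normal diet mean was -0.098 on the log2 scale in library 2, against a group median of 0.059 (n = 5). The part of the other RNA in these values was not tested.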

How the results depend on the processing

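Summary values were counts of called genes of the list or of its calls between populations, and medians of its log2 changes. Under other scaling, filters, tools and left-out libraries, most stayed within the limits set (459 did, 18 did not). Within populations, peritoneal refeeding alone had a main count of called genes above 0, so this tally says little about that result. A count was held to a bounded ratio to the main count, and a median to the SD between libraries. A median could change sign within that limit, as some given below did. In peritoneal refeeding the 1 gene called became 2 with DESeq2 (Nop16 and Myc), 3 without fasted 5 and refed 6, and 0 with the replicate block in place of cohort (Nop16 1.05, adjusted p = 0.228). Leaving out 1 library kept the count of 1 gene in 4 of 16 fits and gave 0 to 2 genes, 2 without refed 6. Limma voom called 1 gene for STZ against normal diet in peritoneal macrophages (Rrp12 0.61, adjusted p = 0.031). Over all genes the peritoneal refeeding count of 49 became 342 (DESeq2), 191 (voom), 312 (no filter), 81 (without fasted 5 and refed 6) and 0 (replicate block), and 9 (without refed 4) to over 2 times as many (without refed 6) by leaving out 1 library. The count of 171 for STZ against normal diet became 950, 876 and 710 under the first 3 settings, 214 with no replicate block, and 30 (without STZ 4) to 301 (without STZ 2). For STZ against high-fat diet the count of 0 became 205, 381 and 166. By leaving out 1 library, the median of the listed genes in islet macrophages ran from -0.174 (without high-fat 5) to 0.103 (without high-fat 4) for high-fat against normal diet, from -0.520 (without STZ 4) to -0.125 (without STZ 5) for STZ against normal diet, and from -0.431 (without STZ 4) to -0.002 (without STZ 5) for STZ against high-fat diet. In microglia it ran from -0.207 to -0.022 (without STZ 3_13) for STZ against high-fat diet and from 0.020 (without normal 3_17) to 0.256 for STZ against normal diet, and in peritoneal macrophages from -0.020 (without STZ 4) to 0.031 for STZ against normal diet. Myc, uncalled in each, changed sign in Kupffer refeeding (0.195 without the refed libraries described as fasted). For STZ against normal diet in peritoneal macrophages Myc was 0.013 with voom and ran from -0.182 to 0.026 by leaving out 1 library, above 0 without STZ 2 (0.026) or normal 4 (0.003). In islet macrophages its high-fat difference from normal diet ran from -0.628 to 0.579, below 0 without high-fat 5 (-0.628), normal 5 (-0.177), STZ 4 (-0.076), STZ 5 (-0.072) or normal 3 (-0.001). Its STZ difference there ran from -0.813 to 0.235 against normal diet, above 0 without STZ 5 (0.235) or normal 4 (0.173), and from -0.931 to 0.432 against high-fat diet, above 0 without high-fat 5 (0.432) or STZ 5 (0.307). In microglia its high-fat difference from normal diet ran from -0.043 (without high-fat 1_2) to 0.187. The cause was not tested. The replicate block changed no other call. Deviations of same-numbered refed and fasted libraries correlated above 0.1 in 2 of 8 colonic, 1 of 6 islet and 1 of 6 Kupffer pairs (at most 0.144) and in no pair of the other 4 populations (peritoneal -0.029 to 0.020). In islet macrophages 5 of 6 refed libraries correlated best with their own number, a hint from the data and not from the design.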
